A study of Homo sapiens with 6 samples.

Results

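SHCBP1, its partner SHC1 and 8 genes of the central spindle were followed across 6 arrays, 3 from cells given an shRNA against SHCBP1 and 3 from cells given a control shRNA. The members were every probe set of the Affymetrix PrimeView array whose annotation gives a single gene symbol that is SHCBP1, SHC1, RACGAP1, KIF23, ECT2, PRC1, AURKB, INCENP, CDCA8 or BIRC5. That rule found 34 probe sets of 44988 with 1 symbol, and all 10 genes of 18132. Both groups were TPC-1 cells, an established human papillary thyroid carcinoma line, infected with lentivirus that carried the shRNA. The RNA extraction protocol, however, speaks of DLD1, which is a line from a colorectal carcinoma, so the labels leave the line in doubt. The labels give neither the number of hairpins nor the time after infection, and they call the 3 samples of a group independent without naming separate cultures, so p-values measure only the array-to-array spread, part or all of which may be technical.

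SHC1 is an adaptor that docks on phosphorylated growth factor receptors and passes the signal to GRB2, SOS and RAS, and SHCBP1 was named for binding its SH2 domain. In dividing cells SHCBP1 also travels to the midbody by binding RACGAP1, a subunit of centralspindlin. The central spindle is the bundle of overlapping microtubules between separating chromosomes: PRC1 crosslinks it, centralspindlin (the kinesin KIF23 with RACGAP1) gathers there, and the exchange factor ECT2 is recruited to activate RHOA at the cleavage furrow. The chromosomal passenger complex (the kinase AURKB, its scaffold INCENP, CDCA8 or borealin, and BIRC5 or survivin) directs where and when this happens. Transcripts of many of these genes are known to peak late in the cell cycle.

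Several of the genes share a promoter feature, shown here as a description. Its part in the members' differences was not tested. RefSeq promoter windows (build GRCh38.p14, 300 bases) were found for 8 of the 10 members, not for RACGAP1 and BIRC5. TTTGAA, the core of the cell cycle genes homology region to which the repressor complex DREAM and the activators B-MYB and FOXM1 are recruited, was searched on both strands, as was CCAAT, the box bound by NF-Y (ATTGG on the other strand). TTTGAA was present in the windows of 6 members (SHCBP1, KIF23, ECT2, PRC1, INCENP and CDCA8) and absent from those of SHC1 and AURKB, against 15.2% of all 35116 promoter windows of this length and 18.2% of the 27305 genes they belong to. CCAAT was present in at least 1 window of all 8, against 34.6% of windows and 39.7% of genes. ECT2, SHC1 and AURKB have more than 1 window, and the second of ECT2 holds no CCAAT. Both motifs are in capitals in the 100-base stretches below, which run 5′ to 3′ on the gene's strand from 80 bases before the start to 20 after it, or for ECT2 from 130 to 31 bases before its first start. In CDCA8 the motifs overlap by 1 base. A match describes these letters and is not a measured binding site.
SHCBP1, chr16:46621360-46621459, minus strand: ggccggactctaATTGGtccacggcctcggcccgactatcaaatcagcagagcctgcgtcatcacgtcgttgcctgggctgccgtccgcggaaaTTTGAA
KIF23, chr15:69414269-69414368, plus strand: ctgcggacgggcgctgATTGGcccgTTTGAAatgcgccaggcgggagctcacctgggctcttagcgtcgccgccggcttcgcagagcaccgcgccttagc
PRC1, chr15:90994516-90994615, minus strand: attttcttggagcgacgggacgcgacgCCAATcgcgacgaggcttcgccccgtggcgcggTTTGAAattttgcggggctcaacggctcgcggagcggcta
CDCA8, chr1:37692436-37692535, plus strand: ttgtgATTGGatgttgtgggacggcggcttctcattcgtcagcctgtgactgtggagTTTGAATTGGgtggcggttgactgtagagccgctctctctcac
INCENP, chr11:62123931-62124030, plus strand: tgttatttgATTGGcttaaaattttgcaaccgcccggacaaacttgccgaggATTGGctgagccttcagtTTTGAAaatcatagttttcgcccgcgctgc
ECT2, chr3:172750596-172750695, plus strand: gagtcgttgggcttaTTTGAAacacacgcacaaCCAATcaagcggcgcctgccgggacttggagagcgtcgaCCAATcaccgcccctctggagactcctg

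The deposited values are on the log2 scale of RMA (the authors' normalization), and each probe set is centred on its median over the 6 arrays. They compare arrays for one gene and hold no level, so genes cannot be ranked by abundance and the markers of thyroid or colorectal cells cannot be checked for presence. Where the groups do not overlap, the centring places 0 midway between their nearest arrays, so the sign of a single value carries no information of its own. A gene value here is the mean of its probe sets on an array, and a difference is the mean of the SHCBP1 shRNA arrays minus the mean of the control arrays. In bulk RNA, fewer cells in a stage of the cycle and less RNA per cell cannot be told apart. A difference was called when limma's moderated test, fitted on all genes, gave a Benjamini-Hochberg adjusted p under 0.05. By that rule 22% of all genes rose after SHCBP1 shRNA and 19% fell. The poly-A spike-in control probe sets were also higher there, by 0.43 ± 0.04 log2 (SE, n = 3 arrays per group). Differences are thus relative to the other genes, and scaling to the spike-ins lowers every difference by 0.43. That scaling assumes an equal amount of spike-in per sample, which these values cannot show. The 3′ and 5′ control probe sets of ACTB were higher by 0.20 and 0.28, and those of GAPDH by 0.04 and 0.05.

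Relative to other genes, 4 of the 10 members rose (RACGAP1, KIF23, PRC1 and CDCA8), 4 fell (SHCBP1, SHC1, ECT2 and INCENP) and AURKB and BIRC5 did not pass the test, while relative to the spike-ins 1 rose (CDCA8) and 8 fell. By spike-in scaling 441 of all 18132 genes rose and 16268 fell. As deposited, 8 of the 10 members were called, against 41% of all genes. The median size of a difference was 0.29 among the members and 0.11 among all genes, and the signed medians were 0.03 and 0.02. The groups did not overlap for 9 of the 10 members, against 50% of all genes. SHCBP1, the gene targeted by the shRNA, is in these counts. Of the 9 other members 7 were called and 8 had no overlap, with a median size of 0.27. The members were chosen with earlier results of these data known. In order, the differences ran from SHCBP1 (-1.54) through ECT2 (-0.35), SHC1 (-0.18), INCENP (-0.15), BIRC5 (-0.0041) and AURKB (0.07) to RACGAP1 (0.27), PRC1 (0.31), KIF23 (0.47) and CDCA8 (0.69). Neighbours in this order had overlapping 95% intervals, those of ECT2 and SHC1 only just, except SHCBP1 and ECT2, AURKB and RACGAP1, and KIF23 and CDCA8.

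**Figure D1:**
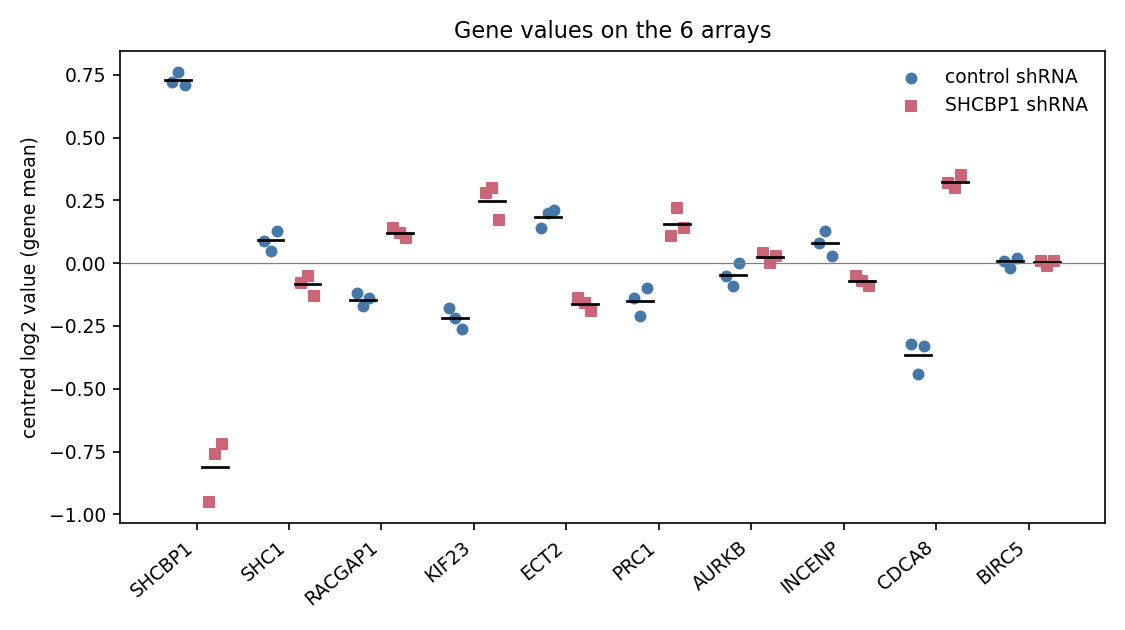
Centred log2 value of each gene on each of the 6 arrays, control shRNA as circles and SHCBP1 shRNA as squares, with a black bar at each group mean. The 3 SHCBP1 shRNA arrays lie below the 3 control arrays for SHCBP1, SHC1, ECT2 and INCENP, above them for RACGAP1, KIF23, PRC1 and CDCA8, above them by 0.006 for AURKB, and among them for BIRC5.

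SHCBP1, the gene targeted by the shRNA, had values of 0.72, 0.76 and 0.71 on the control arrays and -0.95, -0.76 and -0.72 on the SHCBP1 shRNA arrays. The groups were apart by 1.44 at their nearest arrays, and replicate 1 of the SHCBP1 shRNA group was the lowest array. The fall of 1.54 ± 0.06 log2 (SE, n = 3 per group) was 2.91-fold (limma adjusted p = 1.87e-06). Its probe sets 11728403_at and 11728404_at gave -1.61 and -1.48, both lower in the arrays labelled SHCBP1 shRNA. How much of the transcript remained cannot be read from centred values.

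SHC1, the adaptor partner, had 0.09, 0.05 and 0.13 on the control arrays and -0.08, -0.05 and -0.13 on the SHCBP1 shRNA arrays. Every control array was above every SHCBP1 shRNA array, by at least 0.10. The fall was small, 0.18 ± 0.04 log2 (SE, n = 3 per group) or 1.13-fold (limma adjusted p = 0.0075). Of its 4 probe sets 1 passed on its own, 11758297_s_at with -0.29. The others gave -0.21, -0.14 and -0.07 with overlapping groups (limma adjusted p from 0.0601 to 0.39). The ending _s_at marks probes that can match several transcripts, and without such probe sets and those ending in _x_at the gene's difference was -0.17 (adjusted p = 0.0304).

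Both subunits of centralspindlin rose relative to other genes, though not by spike-in scaling (KIF23 0.03, limma adjusted p = 0.607, and RACGAP1 lower at -0.17, adjusted p = 0.0121). KIF23, the motor, had -0.18, -0.22 and -0.26 on the control arrays and 0.28, 0.30 and 0.17 on the SHCBP1 shRNA arrays, a rise of 0.47 ± 0.05 log2 (SE, n = 3 per group) or 1.38-fold (limma adjusted p = 0.000112). RACGAP1, the subunit that SHCBP1 binds, had -0.12, -0.17 and -0.14 against 0.14, 0.12 and 0.10. It rose by 0.27 ± 0.03 log2 (SE, n = 3 per group) or 1.20-fold (limma adjusted p = 0.000433). For neither subunit did the groups overlap, and all 5 probe sets rose on their own, KIF23 by 0.35 and 0.58 and RACGAP1 by 0.22 to 0.34.

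PRC1, the microtubule crosslinker to which centralspindlin and kinesins attach, had -0.14, -0.21 and -0.10 on the control arrays and 0.11, 0.22 and 0.14 on the SHCBP1 shRNA arrays. It rose by 0.31 ± 0.04 log2 (SE, n = 3 per group) or 1.24-fold (limma adjusted p = 0.000958), and was lower by spike-in scaling (-0.13, adjusted p = 0.0323). Its 4 probe sets all pointed up but differed in size. 11761011_at gave 0.65 and 11750824_a_at 0.31, while 11716358_s_at gave 0.14 and 11747713_a_at 0.13, the last without passing (limma adjusted p = 0.0609). The widest spread within a group was also on 11761011_at, with 0.19, 0.60 and 0.32 on the SHCBP1 shRNA arrays.

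ECT2, the RHOA exchange factor that RACGAP1 recruits to the midzone, went the other way. Its values were 0.14, 0.20 and 0.21 on the control arrays and -0.14, -0.16 and -0.19 on the SHCBP1 shRNA arrays. The fall was 0.35 ± 0.04 log2 (SE, n = 3 per group) or 1.27-fold (limma adjusted p = 0.000143). Both probe sets fell, 11745833_s_at by 0.44 and 11745834_a_at by 0.25, with no overlap of the groups in either. ECT2 and KIF23 hold the same TTTGAA hexamer in their promoter windows, at 115 (first start of ECT2) and 55 bases before the start. ECT2 has further matches, at base 35 after its first start and 182 bases before its second. As deposited, the differences of ECT2 and KIF23 had opposite signs, but by spike-in scaling KIF23 was not called (0.03, limma adjusted p = 0.607). The part of the hexamer in either difference was not tested.

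In the chromosomal passenger complex 1 gene rose, 1 fell and 2 did not pass. CDCA8 (borealin, which helps bind the complex to chromatin) had -0.32, -0.44 and -0.33 on the control arrays and 0.32, 0.30 and 0.35 on the SHCBP1 shRNA arrays. Its rise of 0.69 ± 0.04 log2 (SE, n = 3 per group), 1.61-fold, was the largest of the members (limma adjusted p = 1.37e-05). Its probe sets gave 0.64 and 0.73, and 256 genes rose further on the arrays. It was the only member still higher after spike-in scaling, by 0.25 (limma adjusted p = 0.000944).

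INCENP, the scaffold that binds and activates AURKB, had gene values of 0.08, 0.13 and 0.03 on the control arrays and -0.05, -0.07 and -0.09 on the SHCBP1 shRNA arrays. It fell by 0.15 ± 0.04 log2 (SE, n = 3 per group) or 1.11-fold (limma adjusted p = 0.0142), but its probe sets disagreed. 11733188_at gave 0.17, 0.12 and 0.17 against -0.30, -0.15 and -0.12, a fall of 0.34 (limma adjusted p = 0.00229). 11733189_at gave 0.00, 0.14 and -0.12 against 0.20, 0.00 and -0.06, overlapping groups and a difference of 0.04 (limma adjusted p = 0.772). The call for INCENP rests on the first of these.

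AURKB, the kinase, has 1 probe set, with -0.05, -0.09 and 0.00 on the control arrays and 0.04, 0.00 and 0.03 on the SHCBP1 shRNA arrays. The groups were apart by 0.006 at their nearest arrays, and the difference of 0.07 ± 0.04 log2 (SE, n = 3 per group) did not pass (limma adjusted p = 0.16, 95% interval -0.01 to 0.16). BIRC5, an inhibitor-of-apoptosis family protein that targets the complex to centromeres, had 0.01, -0.02 and 0.02 on the control arrays and 0.01, -0.01 and 0.01 on the SHCBP1 shRNA arrays. The groups overlapped, and the 95% interval of its difference ran from -0.08 to 0.07 (limma adjusted p = 0.939). In limma's fit 0 of its 12 probe sets were called and 0 had an unadjusted p under 0.05, with 5 differences above 0 and 7 below, from -0.07 to 0.13. Relative to the spike-ins, AURKB and BIRC5 were lower, by 0.36 and 0.44 on the log2 scale (limma adjusted p = 9.6e-05 and 3.1e-05).

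**Figure D2:**
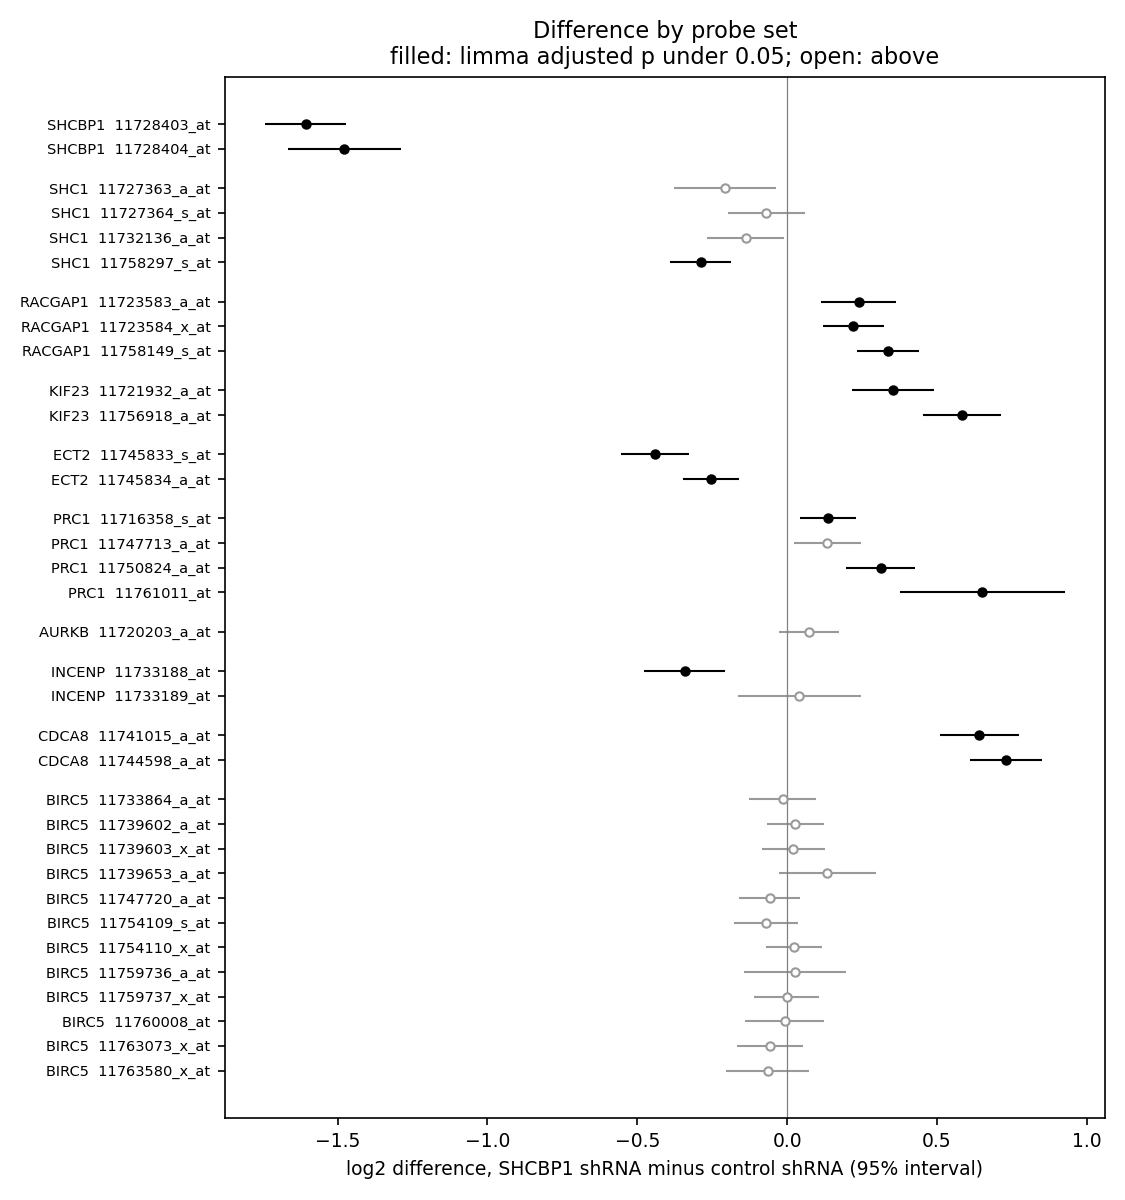
Log2 difference (SHCBP1 shRNA minus control shRNA, 3 arrays each) of each of the 34 probe sets, grouped by gene, with its 95% interval from limma. Filled points have an adjusted p under 0.05. The probe sets of RACGAP1, KIF23, ECT2 and CDCA8 are filled and on one side for each gene, those of INCENP fall on both sides of 0, and all 12 of BIRC5 are open and near 0.

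Over probe sets, 16 of the 34 were called, against 38.5% of all probe sets with 1 symbol. Of these 10 were higher and 6 lower (20.3% and 18.2% of all), and 12 of the 18 that did not pass belong to BIRC5. The 6 lower include the 2 of SHCBP1, the targeted gene. The groups did not overlap in 19 of the 34 (48.4% of all). Probe sets of one gene measure the same RNA extracts and are not replicates of a condition.

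Subunits that work in fixed complexes were also compared within each array, since a shift of a whole array, such as spike-in scaling, cancels there. Quantile normalization is not such a shift, and the pairs were not compared after it. KIF23 minus RACGAP1 was -0.06, -0.05 and -0.12 on the control arrays and 0.14, 0.18 and 0.07 on the SHCBP1 shRNA arrays, a shift of 0.20. CDCA8 minus AURKB shifted by 0.61, from -0.27, -0.35 and -0.33 to 0.28, 0.30 and 0.32. INCENP minus AURKB shifted by -0.22 and BIRC5 minus AURKB by -0.08. In all 4 pairs the groups did not overlap, and each gave p = 0.1 in the two-sided exact permutation test (adjusted over the 4 pairs, 0.1), the smallest that 3 arrays against 3 allow. How often other gene pairs do not overlap was not computed, and 50% of single genes did not. The INCENP, CDCA8 and BIRC5 pairs subtract the same AURKB probe set, so they are not independent of one another. AURKB and BIRC5 were not called on their own (differences of 0.07 and -0.0041), and the call for INCENP rests on 1 of its 2 probe sets.

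**Figure D3:**
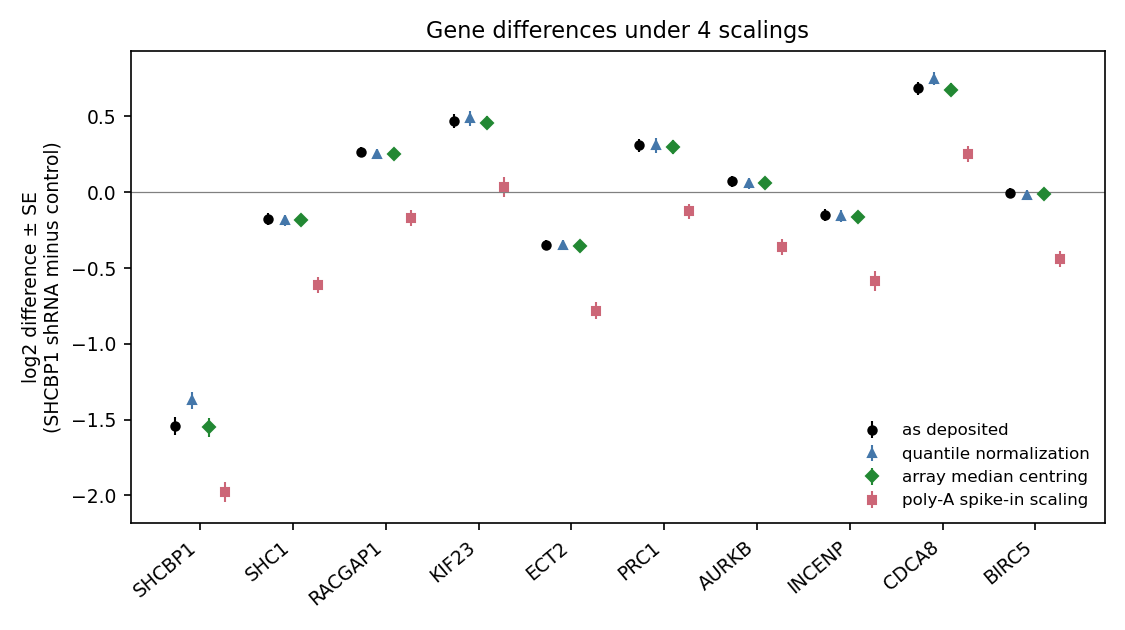
Log2 difference ± SE of each gene with the values as deposited (circles), after quantile normalization (triangles), after array median centring (diamonds) and after scaling to the poly-A spike-ins (squares). Circles, triangles and diamonds lie close together except for SHCBP1 and CDCA8, while spike-in scaling lowers all genes by 0.43 and leaves CDCA8 as the only member called higher (0.25), with SHCBP1 at -1.98.

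Other genes of the midzone and of cytokinesis were mixed as well. Of 21 tested, 5 rose and 6 fell, against 22% and 19% of all genes, with a median difference of -0.04. By spike-in scaling 1 rose and 20 fell. That scaling called 441 of all 18132 genes higher and 16268 lower. The cell cycle phosphatase genes CDC14A and CDC14B rose by 0.68 and 0.30 log2, and RHOA, the GTPase activated by ECT2, by 0.24, but with spike-in scaling CDC14B and RHOA were lower (-0.13 and -0.19). The furrow scaffold ANLN fell by 0.71, the abscission factor CEP55 by 0.69 and the mitotic kinase PLK1, which primes the ECT2 and RACGAP1 interaction, by 0.38. Differences of these 6 genes had limma adjusted p from 5.42e-06 to 0.00228. SHCBP1L, the paralogue of SHCBP1, did not pass (0.04 ± 0.07 SE, adjusted p = 0.726).

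Among 16 neighbours of SHC1 in receptor signalling 2 rose and 5 fell, against 22% and 19% of all genes. The median difference was -0.04, and by spike-in scaling 15 were lower. Of all 18132 genes 16268 were lower by that scaling. GRB2, which binds phosphorylated SHC1, fell by 0.21 ± 0.04 log2 (SE, n = 3 per group, limma adjusted p = 0.00246). PTPN11, which encodes the phosphatase SHP2, and the receptor gene EGFR differed by -1.05 and -0.79, each with probe sets on both sides of 0 (-2.02 to 0.07 and -1.67 to 0.10). HRAS rose by 0.45 and the docking protein gene GAB1 by 0.28, and with spike-in scaling HRAS was not called (0.02) and GAB1 was lower (-0.15). The probe sets of GAB1 also lay on both sides of 0, from -0.07 to 0.68. The paralogues SHC2, SHC3 and SHC4 did not pass (differences of -0.19, 0.13 and 0.0046, limma adjusted p from 0.051 to 0.958).

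Proliferation markers moved in both directions beside the members: of 15, 5 rose and 4 fell, against 22% and 19% of all genes. Their median difference was 0.03, and by spike-in scaling 1 rose and 11 fell. Over all 18132 genes that scaling gave 441 higher and 16268 lower. PCNA, TYMS and MCM2 of DNA synthesis rose by 0.71, 0.50 and 0.42, but with spike-in scaling TYMS was not called (0.06, limma adjusted p = 0.309) and MCM2 went to -0.015. MKI67 fell by 0.48, the cyclin gene CCNA2 by 0.15 and RRM2 by 0.14. RRM2 has probe sets from -0.86 to 0.58, and it was higher (0.58, limma adjusted p = 1.36e-05) without those ending in _s_at or _x_at. It was also no longer called after quantile normalization (-0.084, limma adjusted p = 0.122), without control replicate 2 (adjusted p = 0.0519) or without SHCBP1 shRNA replicate 3 (adjusted p = 0.0603). The summed value of these markers ran from -0.99 to -0.52 on the control arrays and from 0.54 to 0.89 on the SHCBP1 shRNA arrays, a direction that turns with spike-in scaling (summed difference -5.05), and its part in the members' differences was not tested.

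**Figure D4:**
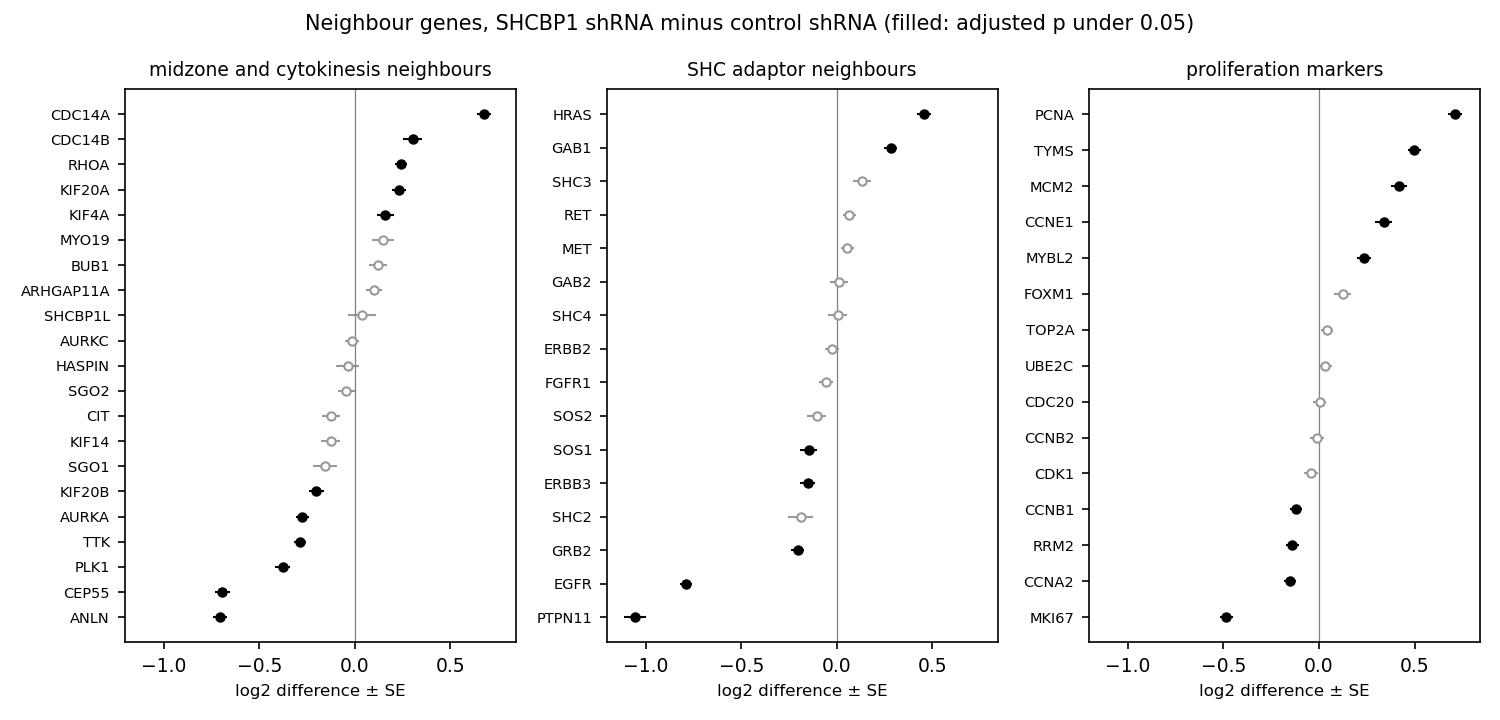
Log2 difference ± SE (SHCBP1 shRNA minus control shRNA, 3 arrays each) of genes of the midzone and cytokinesis, of SHC signalling and of proliferation, sorted within each panel. Filled points have a limma adjusted p under 0.05, with 5 higher and 6 lower on the left, 2 and 5 in the middle, and 5 and 4 on the right. Over all genes 22% were higher and 19% lower. Spike-in scaling would move every point to the left by 0.43.

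Markers of the named cells and of others were compared as differences only. Of 6 thyroid markers 1 rose (FOXE1, 0.24), and of 7 colorectal markers LGR5 rose by 0.58, CDX2 rose by 0.12 and KRT20 fell by 1.09. Over all genes 22% rose and 19% fell. With spike-in scaling FOXE1 and CDX2 were lower (-0.19 and -0.32), and CDX2 was no longer called without control replicate 1 or without SHCBP1 shRNA replicate 2 or 3 (limma adjusted p from 0.0507 to 0.0653). Of 6 fibroblast and 4 leukocyte markers limma called 0, with 1 and 0 at an unadjusted p under 0.05. By spike-in scaling all 6 thyroid, 6 fibroblast and 4 leukocyte markers were lower, and of the colorectal markers 1 was higher and 6 lower. So were most genes by that scaling, with 16268 of all 18132 lower and 441 higher. The part of any of these in the members' differences was not tested.

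The genes whose 6 values lay nearest to those of SHCBP1 were TMEM59, ELMOD2, ATP2B1, ITGB5 and TMTC4, with Euclidean distances of 0.12 to 0.19 log2 over the 6 arrays. They fell by 1.61, 1.52, 1.52, 1.59 and 1.58 log2, against 1.54 for SHCBP1, and TMEM59 and ITGB5 rest on 1 probe set each. In all, 26 genes fell further than SHCBP1. None of the 9 other members was among the 5 nearest. That follows from the size of their differences, since the next largest fall of a member was 0.35 (ECT2).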

How the data were processed

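RNA of 3 control shRNA and 3 SHCBP1 shRNA samples was hybridised to 1 array each. The authors deposited 1 log2 value per probe set and array, made with RMA per the submitters' processing notes. The log base is not stated and was taken as that of RMA. Every probe set has a median of 0 over the arrays, so the deposited values were centred; no source used here describes that step or the software version. RMA evens the distribution of all arrays, so a shift of all transcripts one way would be removed. No filter on dim probes is possible on centred values.

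Of 49395 probe sets, 102 are controls, 44988 have 1 symbol, 1832 several and 2473 none; 0 with several symbols name a member. Genes are means of their single-symbol probe sets. Differences were tested unpaired with the limma package (3.58.1, functions lmFit and eBayes, R 4.3.3) over all 18132 genes or all 44988 probe sets, and the script was tested on simulated data. Arrays of one group differed with an SD of 0.131 to 0.139 over probe sets, so none repeats another. Members and lists were chosen with earlier results of these data known. Each neighbour list names up to 3 called genes per direction; SHCBP1L, SHC2, SHC3, SHC4 and the cell type markers were named after their values were seen. A few listed genes are not reported here. Spike-ins are 24 probe sets (dap, lys, phe and thr).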

Additional observations from a re-analysis of the deposited data

How the results depend on the processing

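Scaling to the poly-A spike-ins changed the most: 1 member gene was then higher and 8 lower, 3 and 27 member probe sets, and 441 and 16268 of all genes (as deposited, 4 and 4, 10 and 6, 3992 and 3448). It turned RACGAP1 to -0.17, PRC1 to -0.13, AURKB to -0.36, RHOA to -0.19, CDC14B to -0.13, GAB1 to -0.15, MCM2 to -0.015, FOXE1 to -0.19 and CDX2 to -0.32, which follows from the shift of 0.43. RRM2 turned to 0.58 without _s_at and _x_at probe sets, and INCENP to 0.040 on probe set 11733189_at alone. Quantile normalization, array median centring, array weights, robust moderation and the median of probe sets kept 4 member genes higher and 4 lower. With these settings 3720 to 4027 of all genes were higher and 3300 to 3627 lower. RMA had already evened the arrays, and the first 2 settings moved the median difference of all genes by only -0.012 and -0.0098. Robust moderation cannot change a difference, only its test. With 1 array left out, SHCBP1 ran from -1.59 to -1.47, member genes stayed at 4 higher and 4 lower, and INCENP had limma adjusted p up to 0.0494. All-gene counts were then 3536 to 3699 higher and 3119 to 3232 lower. With the replicate number as a block, SHCBP1 was at -1.54 (limma adjusted p = 8.83e-05), 4 member genes were higher and 4 lower, and 3783 and 3309 of all genes. Deviations of same-numbered arrays correlated at 0.01, -0.03 and 0.06, so these arrays shared little deviation. Such correlations cannot tell whether same-numbered samples were handled together. The 3 arrays per group limit the precision.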
